A study of Mus musculus with 24 samples.

Results

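The genes of the proteasome were examined in RNA-seq data of the mouse striatum. Members were all genes whose symbol starts with Psm, then a letter from a to g, then a digit. This rule selected 50 of the 24340 genes that all 6 deposited comparison tables hold. Of these, 49 reached 0.1 FPKM in at least 1 group, as did 17264 of all genes. FPKM is the number of fragments scaled by transcript length and by the mapped fragments of the library, so it can be compared between genes of different length. The lowest member above the minimum was Psma8, with at most 0.171 FPKM, and the only member below it was Psmb11, with at most 0.0471 FPKM.

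The study treated R6/1 mice and their wild type littermates with RGFP109, an inhibitor of the histone deacetylases HDAC1 and HDAC3, and asked whether the inhibitor moves gene expression in this model of Huntington's disease. There were 24 mice in 4 groups, namely WT-vehicle (n = 5), R6/1-vehicle (n = 6), WT-RGFP109 (n = 6) and R6/1-RGFP109 (n = 7). R6/1 mice carry a fragment of the human huntingtin gene with an expanded CAG repeat as a transgene, which is driven by the human huntingtin promoter and is not limited to the striatum. Over 3 weeks, treated mice were given RGFP109 into the abdomen on 5 occasions weekly, each of 30 mg/kg, and control mice an equal injection of dimethyl sulfoxide in saline. All mice were males of a C57BL/6J background. Treatment started at an age of 11 to 14 weeks, and tissue was taken 18 h after the last injection, at an age of 14 to 17 weeks. Each table gives 1 FPKM value per group, pooled over the mice. The tables therefore hold no spread between mice, and each ratio below is a description of the pooled values, with no standard deviation, test or replicate check. A ratio of 1.2 was used to sort the genes, not to call a change. It lies at 0.26 on the log2 scale, and ratios were taken after adding 0.05 FPKM to both values.

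The proteasome is the barrel-shaped protease that degrades ubiquitin-tagged proteins in the cytosol and nucleus. Its 20S core has outer rings of alpha subunits and inner rings of beta subunits, of which Psmb5, Psmb6 and Psmb7 cut the chains, while the 19S cap recognizes, unfolds and feeds the substrates. In cells exposed to interferon the catalytic subunits can be replaced by Psmb8, Psmb9 and Psmb10, which forms the immunoproteasome, and the core can be capped by the 11S activator of Psme1 and Psme2. Inclusions of mutant huntingtin in Huntington's disease contain ubiquitin and proteasome subunits, which is why this protease has been studied in the disease.

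Promoter windows are shown for the genes on which the contrast between constitutive and interferon-inducible subunits turns, namely a pair of constitutive catalytic subunits (Psmb5 and Psmb6), the immunoproteasome subunits that replace them (Psmb8 and Psmb9) and both 11S subunits (Psme1 and Psme2). Each runs 5′ to 3′ in the direction of the gene, from 250 bases before to 50 bases after the start of its transcript, and is taken from RefSeq on GRCm38.p6. Capitals mark matches to the motifs described next.
Psmb5, chr14:54617946-54618245, minus strand: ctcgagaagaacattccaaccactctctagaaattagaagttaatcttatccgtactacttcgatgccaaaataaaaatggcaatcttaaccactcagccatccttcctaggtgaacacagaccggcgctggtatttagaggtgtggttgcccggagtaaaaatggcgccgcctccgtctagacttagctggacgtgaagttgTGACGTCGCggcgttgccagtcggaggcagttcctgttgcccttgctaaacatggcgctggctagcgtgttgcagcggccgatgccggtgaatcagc
Psmb6, chr11:70525107-70525406, plus strand: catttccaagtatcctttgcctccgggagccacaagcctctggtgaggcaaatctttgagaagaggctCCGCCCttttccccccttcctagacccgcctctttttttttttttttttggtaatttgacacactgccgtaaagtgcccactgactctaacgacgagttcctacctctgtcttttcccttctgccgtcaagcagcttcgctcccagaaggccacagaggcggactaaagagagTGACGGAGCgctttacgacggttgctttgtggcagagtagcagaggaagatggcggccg
Psmb8, chr17:34197945-34198244, plus strand: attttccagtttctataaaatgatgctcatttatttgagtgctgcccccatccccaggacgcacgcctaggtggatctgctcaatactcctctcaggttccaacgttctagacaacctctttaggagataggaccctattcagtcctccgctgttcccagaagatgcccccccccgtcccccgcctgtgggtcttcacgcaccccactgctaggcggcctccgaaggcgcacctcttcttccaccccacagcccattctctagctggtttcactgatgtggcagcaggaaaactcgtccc
Psmb9, chr17:34187281-34187580, minus strand: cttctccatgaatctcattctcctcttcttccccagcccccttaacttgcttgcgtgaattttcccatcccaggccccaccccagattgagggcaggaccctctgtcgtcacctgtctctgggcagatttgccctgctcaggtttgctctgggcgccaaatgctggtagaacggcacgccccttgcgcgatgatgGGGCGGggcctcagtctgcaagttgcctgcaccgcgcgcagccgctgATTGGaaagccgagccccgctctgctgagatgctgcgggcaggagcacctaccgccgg
Psme1, chr14:55578244-55578543, plus strand: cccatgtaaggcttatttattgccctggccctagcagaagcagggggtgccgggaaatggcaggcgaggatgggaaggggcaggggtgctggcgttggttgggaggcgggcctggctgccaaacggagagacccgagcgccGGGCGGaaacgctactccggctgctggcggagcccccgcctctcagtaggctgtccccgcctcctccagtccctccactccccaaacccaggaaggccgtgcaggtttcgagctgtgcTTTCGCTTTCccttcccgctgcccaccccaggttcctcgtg
Psme2, chr14:55591052-55591351, minus strand: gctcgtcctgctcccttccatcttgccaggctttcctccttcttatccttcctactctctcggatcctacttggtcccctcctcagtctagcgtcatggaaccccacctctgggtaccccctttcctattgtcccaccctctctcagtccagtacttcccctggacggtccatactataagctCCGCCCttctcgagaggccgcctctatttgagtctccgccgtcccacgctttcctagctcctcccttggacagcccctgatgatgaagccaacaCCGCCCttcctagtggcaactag

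Windows were found for 42 of the 50 members. TGACNNNGC, the core of the element read by Nfe2l1 and Nfe2l2, activators of proteasome genes, was searched on both strands, like all motifs here. It was present for 6 of 42 members (14.3%), against 14.0% of the 27025 genes with a window and 17.1% of the 5272 of them with at least 10 FPKM in every group, so its share among members was close to that of all genes. In Psmb5 it begins 47 bases before the start of the transcript and in Psmb6 9 bases before it. The interferon-response motif, searched as GAAA, 2 bases of any kind and GAAA, was present for 5 members (11.9%), against 3.99% of all genes and 3.15% of the genes at 10 FPKM or more. These were Psmb3, Psmd4, Psmd9, Psme1 and Psmg4, and in the printed Psme1 window it lies on the reverse strand, 9 bases after the start. The windows of Psmb8, Psmb9 and Psme2 held no such match. CCGGAAGT, an ETS motif, was present for 9 members (21.4%), against 4.31% of all genes and 9.98% of those at 10 FPKM or more. GGGCGG, the GC box, was present for 23 members (54.8%), against 38.2% and 72.8%. CCAAT, the NF-Y motif, was present for 15 members (35.7%), against 41.1% and 43.3%. TGACGTCA, the cyclic AMP response element, was present for 0 members, against 2.03% and 4.02%. No overlap between matches of different motifs was removed. The median GC content of the members' windows was 57.3%, against 61.7% for genes at 10 FPKM or more and 52.7% for all genes. These shares describe letters in a window and not bound sites.

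Proteasome genes were among the more highly expressed genes of the striatum, and the levels of the individual genes were similar in the 4 groups. Of the 50 members, 44 had at least 10 FPKM in every group and 47 had at least 1 FPKM, while the median in WT-vehicle over all genes at 0.1 FPKM or more was 8.09 FPKM. The summed level of the members was 2810 FPKM in WT-vehicle, 2940 FPKM in R6/1-vehicle, 2799 FPKM in WT-RGFP109 and 2956 FPKM in R6/1-RGFP109. For 37 members, and for 28 of the 31 genes of the constitutive 20S core and 19S cap, the highest group was less than 1.2 times the lowest. The same count was not made over all genes, so it does not set the members apart from other genes. Levels of the vehicle groups and of the RGFP109 groups come from different tables, and values of the same group differed between tables by a common factor of up to 1.04.

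**Figure D1:**
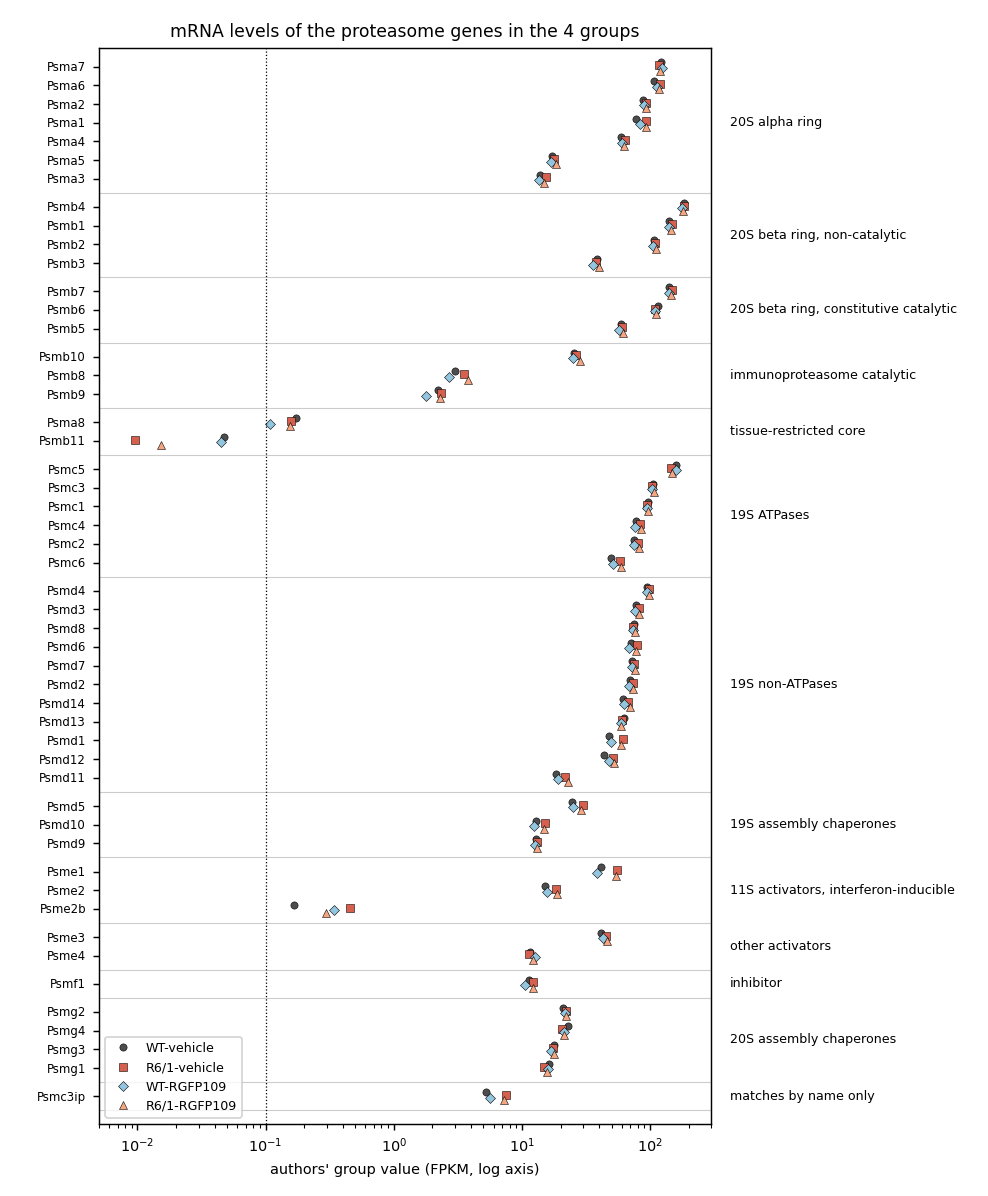
Pooled FPKM of the 50 members in the 4 groups on a log axis, 1 row per gene, ordered within each class by the mean of the 4 groups. The dotted line marks 0.1 FPKM. The 4 symbols of a gene lie close together for most subunits, and Psma8, Psmb11 and Psme2b lie below 1 FPKM.

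The alpha ring of the 20S core is built from Psma1 to Psma7, and the levels of these genes spanned 8.84 times in WT-vehicle. Psma7, the highest in all groups but R6/1-vehicle, was at 122 FPKM in WT-vehicle and 118 in R6/1-vehicle, and 123 in WT-RGFP109 and 119 in R6/1-RGFP109. Psma6, slightly higher than Psma7 in R6/1-vehicle, was at 107, 118, 113 and 118 FPKM in the same order of groups, which is kept for all lists of 4 values. At the low end were Psma5, with 17.0, 17.9, 16.9 and 18.4 FPKM, and Psma3, with 13.8, 15.5, 13.7 and 14.7 FPKM. Each of these subunits is present in equal number in the complex, whereas the mRNA levels given for them were far from equal. The loci given for Psma3, Psma4 and Psma6 are also those of other genes. For Psma3 this is 3110056K07Rik, at 9.81, 12.7, 10.1 and 11.8 FPKM. Whether reads were divided between the genes of a locus was not tested. Psma8, an alpha subunit of the testis, was at 0.171, 0.158, 0.108 and 0.155 FPKM.

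In the beta ring, Psmb1 to Psmb4 are structural subunits. Psmb4 had the highest level of all members, with 183 FPKM in WT-vehicle and 183 in R6/1-vehicle, and 177 in WT-RGFP109 and 182 in R6/1-RGFP109. Psmb1 was at 140, 148, 141 and 147 FPKM, Psmb2 at 107, 110, 104 and 111 FPKM, and Psmb3 at 38.3, 38.0, 36.0 and 39.6 FPKM. All 4 thus stayed within narrow bounds across the groups. Psmb11, the catalytic subunit of the thymus, was at 0.0471, 0.0095, 0.0450 and 0.0153 FPKM, below the minimum in every group, and was not compared.

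In the 19S cap, Psmc1 to Psmc6 form the ATPase ring that unfolds substrates. Psmc5 was the highest, with 160 FPKM in WT-vehicle and 146 in R6/1-vehicle, and 160 in WT-RGFP109 and 147 in R6/1-RGFP109, and was lower in both R6/1 groups than in both wild type groups. Psmc6 was the lowest, with 49.6, 58.2, 51.7 and 59.2 FPKM, and showed the opposite order, with both R6/1 groups above both wild type groups. Psmc3 (106, 104, 103 and 107 FPKM) and Psmc2 (75.3, 80.5, 74.7 and 81.5 FPKM) lay between them. Among the non-ATPase subunits of the cap, Psmd4, a ubiquitin receptor, was the highest at 94.7, 98.4, 94.9 and 97.7 FPKM. Psmd3, a scaffold subunit of the lid, followed at 78.1, 81.4, 75.5 and 81.6 FPKM. Psmd11 was the lowest at 18.3, 21.6, 19.1 and 22.8 FPKM, and Psmd12 was next at 43.9, 50.9, 48.0 and 52.5 FPKM. Both are structural subunits of the lid, and for both the R6/1 groups were the higher ones.

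The factors that build the complex were expressed at lower levels than most of its subunits. The 19S chaperones Psmd5 (24.4, 29.8, 25.2 and 28.6 FPKM), Psmd9 (12.8, 13.2, 12.6 and 13.2 FPKM) and Psmd10 (12.8, 15.1, 12.5 and 15.0 FPKM) summed to 58.1 FPKM in R6/1-vehicle, against 566 FPKM for the 6 ATPase genes they help to assemble. The 20S chaperones Psmg1 to Psmg4 summed to 74.9 FPKM there. Psmg1 was at 16.3, 15.0, 16.1 and 15.6 FPKM, Psmg2 at 20.8, 22.0, 21.7 and 21.9 FPKM, Psmg3 at 17.7, 17.5, 17.0 and 17.7 FPKM, and Psmg4 at 22.8, 20.5, 21.3 and 21.4 FPKM. The inhibitor Psmf1 was at 11.4, 12.2, 10.6 and 12.1 FPKM. Of the activators that do not depend on interferon, the nuclear Psme3 was at 41.4, 45.2, 42.9 and 46.2 FPKM and Psme4 at 11.5, 11.3, 12.7 and 12.1 FPKM. Psmc3ip, a meiotic recombination factor that matches the rule by its name and is no proteasome subunit, was at 5.26, 7.50, 5.67 and 7.29 FPKM.

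The constitutive catalytic genes far exceeded their immunoproteasome counterparts in every group. Psmb5 (chr14:54614120-54617995 on mm10), the chymotrypsin-like subunit, was at 59.0 FPKM in WT-vehicle and 60.3 in R6/1-vehicle, and 56.6 in WT-RGFP109 and 61.7 in R6/1-RGFP109. Its replacement Psmb8 (chr17:34198195-34201454) was at 3.03, 3.50, 2.68 and 3.76 FPKM. The ratio of Psmb5 to Psmb8 was thus 19.5 in WT-vehicle, and Psmb8 was higher in both R6/1 groups than in both wild type groups. Psmb6 (chr11:70525357-70527858), the caspase-like subunit, was at 116, 110, 108 and 112 FPKM, and its replacement Psmb9 (chr17:34182099-34187330) at 2.21, 2.33, 1.80 and 2.29 FPKM. This pair was the most unequal, with a ratio of 52.3 in WT-vehicle. Psmb7 (chr2:38588046-38643906), the trypsin-like subunit, was at 141, 148, 140 and 144 FPKM, and its replacement Psmb10 (chr8:105935728-105938392) at 25.3, 26.2, 24.8 and 28.5 FPKM. The ratio of Psmb7 to Psmb10 was 5.56 in WT-vehicle, the smallest of the 3 pairs.

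Summed over the 3 catalytic sites, the immunoproteasome genes made up 8.83% of the catalytic FPKM in WT-vehicle and 9.17% in R6/1-vehicle, and 8.78% in WT-RGFP109 and 9.81% in R6/1-RGFP109. The share was higher in R6/1 than in wild type mice by 0.342 percentage points with vehicle and by 1.03 percentage points with RGFP109. Most of the summed immunoproteasome FPKM was Psmb10, and at the site of Psmb7 and Psmb10 the share with vehicle was lower in R6/1, with 15.1% against 15.3%. At the site of Psmb5 and Psmb8 it was 5.49% against 4.88% with vehicle and 5.75% against 4.52% with RGFP109. The sign of the vehicle difference therefore depended on the site. RGFP109 went with a summed share higher by 0.635 percentage points in R6/1 mice. By site this difference was 1.41 percentage points for Psmb10 with Psmb7, 0.266 for Psmb8 with Psmb5 and -0.0775 for Psmb9 with Psmb6, so its sign also depended on the site. In wild type mice the summed share differed by -0.0547 percentage points. There the share was lower with RGFP109 at each site, by -0.364 for Psmb8 with Psmb5, -0.240 for Psmb9 with Psmb6 and -0.161 for Psmb10 with Psmb7. Whether the response to RGFP109 differed between the genotypes was not tested.

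**Figure D2:**
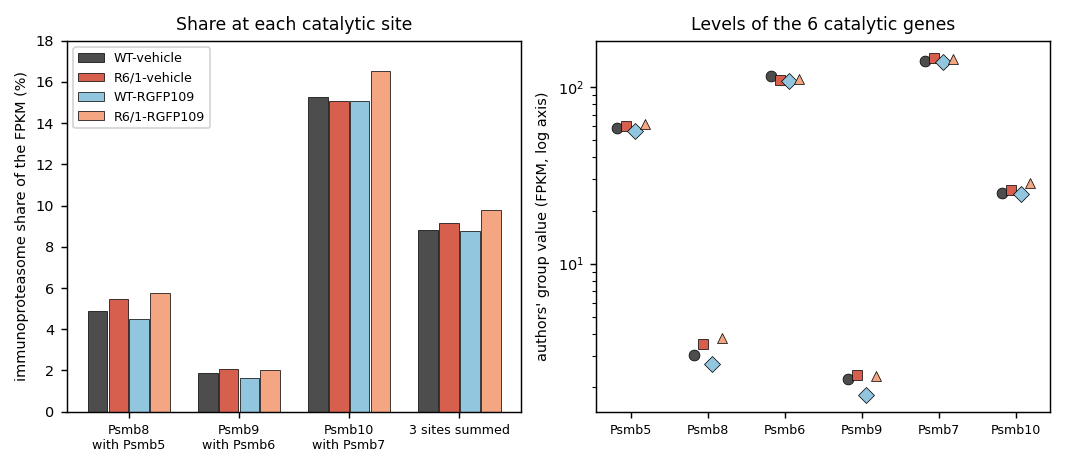
Left, share of the immunoproteasome gene in the FPKM of each catalytic pair and of the 3 pairs summed (%), in the 4 groups. Right, pooled FPKM of the 6 catalytic genes on a log axis, with the same colors. The share is lowest for Psmb9 with Psmb6, between 1.64% and 2.08%, and highest for Psmb10 with Psmb7, between 15.1% and 16.5%.

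With vehicle, the proteasome genes of R6/1 mice lay slightly above those of wild type mice. R6/1-vehicle was past 1.2-fold above WT-vehicle for 7 of 49 members (14.3%), against 16.3% of the 16972 genes compared, a share near that of all genes. It was past 1.2-fold below for 0 members, against 25.4% of all genes. Among the 44 members with at least 10 FPKM, 5 were higher (11.4%), against 11.1% of genes at that level, and 0 were lower, against 21.3%. The members are genes of high level and their ratios were small, so the lack of lower members is read beside the latter percentage. In bulk tissue, fewer cells of a type and less RNA per cell cannot be told apart.

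The median log2 ratio of the 31 constitutive 20S and 19S genes was 0.073, against -0.019 over all genes compared. Of the 31, 22 were above 0 (71.0%), against 47.5% of all genes and 47.1% of genes at 10 FPKM or more. Within the core, the median log2 ratio was 0.12 for the alpha ring, 0.017 for the structural beta subunits, 0.034 for the constitutive catalytic subunits, 0.040 for the ATPases and 0.077 for the other 19S subunits. In the alpha ring, the constitutive catalytic subunits and both 19S classes, the spread inside the class exceeded the differences between these medians. In the alpha ring the log2 ratio ran from -0.054 for Psma7 to 0.26 for Psma1, which was just past 1.2-fold and whose level was 77.5 FPKM in WT-vehicle and 93.1 in R6/1-vehicle, and 83.8 in WT-RGFP109 and 92.4 in R6/1-RGFP109. In the ATPase ring it ran from -0.13 for Psmc5 to 0.23 for Psmc6. Psmd1, the largest scaffold subunit of the 19S base, had the highest ratio of the core at 0.37, with 47.5, 61.4, 49.6 and 59.5 FPKM in the 4 groups, with R6/1 above wild type under either treatment. Psmd1 (chr1:86064619-86139295) shares its locus in the tables with Htr2b, which was listed at 0.059 to 0.10 FPKM.

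Among the proteasome subunits above 1 FPKM, the interferon-inducible 11S activator gene Psme1 had the highest ratio, followed by Psmd1 and by Psme2. Psme1 (chr14:55578494-55585254) was at 41.4 FPKM in WT-vehicle and 55.1 in R6/1-vehicle, and 38.7 in WT-RGFP109 and 53.7 in R6/1-RGFP109, with a log2 ratio of 0.41 between the vehicle groups. Its partner Psme2 (chr14:55587440-55591101) was at 15.1, 18.6, 15.7 and 18.7 FPKM, with a log2 ratio of 0.30. Both R6/1 groups were above both wild type groups for either gene. The tables give Psme1 the same locus as Emc9, a gene of the endoplasmic reticulum membrane complex, and the sources used here do not state whether reads were counted by strand. Emc9 was at 29.5, 26.6, 28.2 and 26.5 FPKM, thus lower in the R6/1 groups. Psme2b, a near copy of Psme2 whose reads are uncertain, was at 0.165, 0.457, 0.343 and 0.296 FPKM, with a log2 ratio of 1.23 at this low level. The immunoproteasome genes themselves were not past 1.2-fold, with log2 ratios of 0.21 for Psmb8, 0.075 for Psmb9 and 0.053 for Psmb10. Besides these 3 activator genes, Psma1 and Psmd1, the members past 1.2-fold were the chaperone Psmd5, with a log2 ratio of 0.29, and Psmc3ip, with 0.51. The lowest log2 ratios were -0.15 for Psmg4, -0.13 for Psmc5 and -0.12 for Psmg1.

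**Figure D3:**
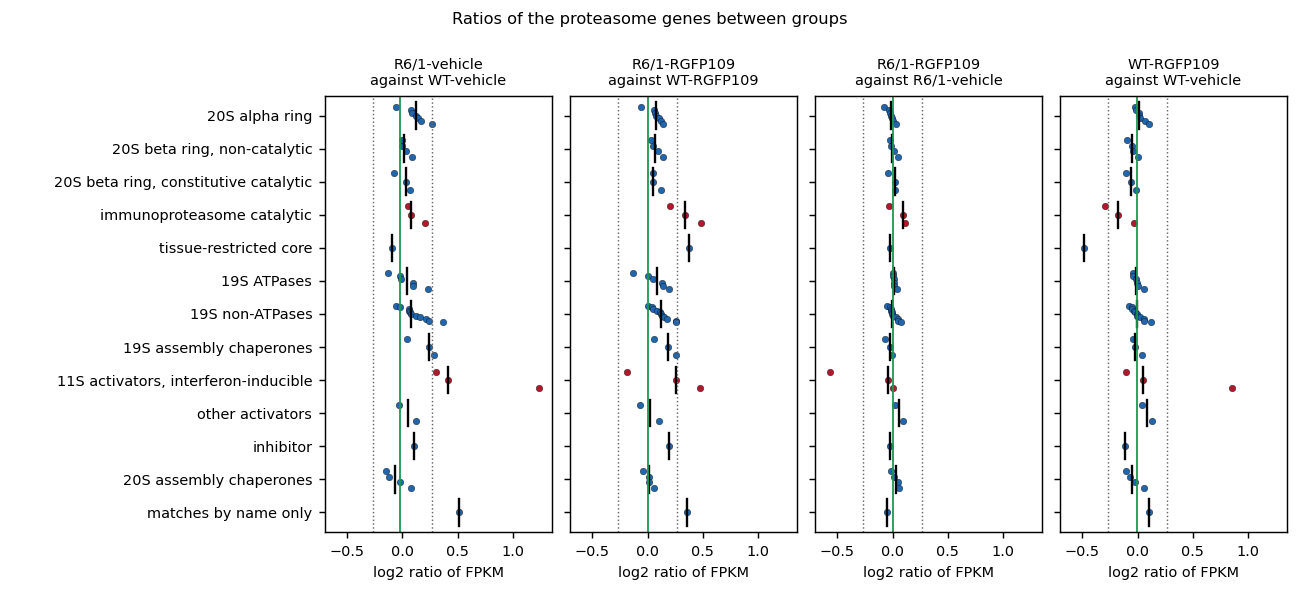
Log2 ratios of FPKM of the 49 members (points) by class in the 4 comparisons, with red points for the immunoproteasome and 11S genes. Black bars mark the median of the class, the green line the median of all genes compared, and dotted lines 1.2-fold in either direction. Most points of the treatment comparisons lie close to 0, and in the genotype comparisons the points of most classes lie to the right of the green line.

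With RGFP109 in both groups, the genotype ratios of the core were again small and mostly above 0. R6/1-RGFP109 was past 1.2-fold above WT-RGFP109 for 5 of 49 members (10.2%), against 14.4% of the 16954 genes compared, and below for 0 members, against 22.4%. Among the 44 members at 10 FPKM or more, 1 was higher (2.27%), against 8.27% of genes at that level, and 0 were lower, against 18%. The median log2 ratio of the 31 core genes was 0.091, against 0.00013 over all genes, and 29 of them were above 0. The exceptions were Psmc5 at -0.13 and Psma7 at -0.057. None of the core genes was past 1.2-fold, and Psmd1, at 0.26, was just under it.

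The members past 1.2-fold in this comparison were mostly genes of the immunoproteasome and its activator. The log2 ratio was 0.48 for Psmb8, 0.34 for Psmb9 and 0.47 for Psme1, and it was 0.36 for Psmc3ip and 0.38 for Psma8, which lay below 0.2 FPKM in all groups. Psmb10 followed at 0.20 and Psme2 at 0.25. For Psmb8 and Psmb9 the levels of WT-RGFP109 were the lowest of the 4 groups, so their larger genotype ratio with RGFP109 went with a lower wild type level. For Psmb8 the R6/1 level was also higher with RGFP109, at 3.76 against 3.50 FPKM. The lowest log2 ratios were -0.19 for Psme2b, -0.13 for Psmc5 and -0.068 for Psme4. Psme2b thus had ratios of opposite sign in the 2 genotype comparisons, both at less than 0.5 FPKM.

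The genotype comparisons with vehicle and with RGFP109 share no library, so their ratios can be set side by side. Psme1 and Psmc3ip were the 2 members past 1.2-fold above wild type in both, which is 4.08% of 49 members, against 8.47% of 16662 genes. Of the 31 core genes, 22 were above 0 in both comparisons (71.0%), against 2884 of the 6995 genes at 10 FPKM or more in every group (41.2%). Below 0 in both were 2 core genes, against 3021 of the 6995. These 2 were Psma7, an alpha subunit, and the ATPase Psmc5. Over the 44 members at 10 FPKM or more in every group, Pearson's r of the log2 ratios was 0.84 and Spearman's rho 0.79. Over the 6995 genes at this level r was 0.75 and rho 0.85. The 2 comparisons were thus about as alike over the members as over genes in general. These genes are not independent replicates and share the tissue samples, kit and sequencing. Over all 49 members r was 0.17 and rho 0.60, and the members added here are those at low FPKM.

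**Figure D4:**
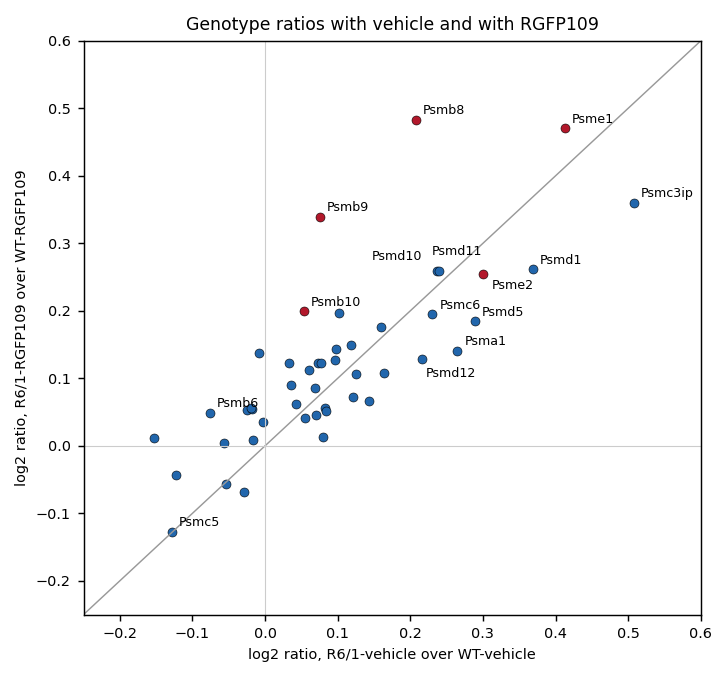
Log2 ratio of R6/1-vehicle over WT-vehicle (horizontal axis) and of R6/1-RGFP109 over WT-RGFP109 (vertical axis) for the 47 members with at least 1 FPKM in every group. The diagonal marks equal ratios, and red points are immunoproteasome and 11S genes. Psme1 is high on both axes, Psmb8 and Psmb9 lie above the diagonal, and Psmc5 is low on both.

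RGFP109 itself went with small ratios for nearly all proteasome genes. In R6/1 mice, R6/1-RGFP109 was past 1.2-fold above R6/1-vehicle for 0 of 49 members, against 5.93% of the 16840 genes compared, and below for 1 member, Psme2b, with a log2 ratio of -0.56, against 7.23%. The median log2 ratio of the 31 core genes was 0.0030, against 0.0012 over all genes. The 3 highest log2 ratios were 0.11 for Psmb10, 0.095 for Psmb8 and 0.093 for Psme4, and after Psme2b the lowest were -0.078 for Psma3 and -0.068 for Psmd5. No core gene was further than 0.078 from 0. Psme1, which was high in both R6/1 groups, had a log2 ratio of -0.044 between them.

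In wild type mice, WT-RGFP109 was past 1.2-fold above WT-vehicle for 1 member, Psme2b, with a log2 ratio of 0.86, against 7.05% of the 16957 genes compared. It was below for 2 members, against 10.6% of all genes. These were Psmb9 at -0.30 and Psma8 at -0.49. The next lowest log2 ratio was -0.18 for Psmb8, so that both immunoproteasome genes of chromosome 17 were lower with RGFP109 in wild type mice. As scaled in this comparison, their levels were low, from 1.73 to 2.92 FPKM. The next highest were 0.13 for Psme4 and 0.12 for Psmd12. The median log2 ratio of the core was -0.014, against -0.0063 over all genes. Of the 31 core genes, 12 were above 0 (38.7%), against 48.0% of all genes and 46.3% of genes at 10 FPKM or more. No member with at least 10 FPKM was past 1.2-fold in either treatment comparison, against 4.26% of such genes in R6/1 and 6.23% in wild type mice. Over the 44 members at 10 FPKM or more in every group, Pearson's r between the treatment ratios of both genotypes was 0.056 and rho -0.028, and over 6995 genes they were 0.044 and -0.054.

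R6/1-RGFP109 was also set against WT-vehicle, a pair that shares a group with each comparison above and is not independent of them. It was past 1.2-fold above WT-vehicle for 7 of 49 members (14.3%), against 15.9% of the 16982 genes compared, and below for 0, against 25.2%. The median log2 ratio of the 31 core genes was 0.075, against -0.016 over all genes. The 7 members were Psme2b at 0.68, Psmc3ip at 0.46, Psme1 at 0.37, Psmd1 at 0.32, Psmd11 at 0.31, Psmb8 at 0.30 and Psme2 at 0.30. Treated R6/1 mice therefore still stood above untreated wild type mice for Psme1, Psme2 and Psmd1, by log2 ratios of the size seen between the vehicle groups.

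Genes that work with the proteasome but lie outside the name rule were read from lists. Of 10 measured proteasome-associated genes, 1 was past 1.2-fold above wild type with vehicle and 0 were below, against 16.3% and 25.4% of all genes, with a median log2 ratio of 0.037. The gene was Usp14, the deubiquitinase that binds the 19S cap, at 0.33. Among 16 measured genes for ubiquitin and substrate delivery, 1 was past 1.2-fold above and 2 below with vehicle, beside the same shares of all genes. Ube3a, a ubiquitin ligase, was the higher one at 0.46, and Ubqln4, a shuttle factor, was the lowest at -0.27. With RGFP109, 0 of the genes of these lists were past 1.2-fold between genotypes, against 14.4% of all genes above and 22.4% below.

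Among 6 genes for the transcription of proteasome genes, the NF-Y subunit Nfya was at 7.71 FPKM in WT-vehicle and 15.7 in R6/1-vehicle, and 7.91 in WT-RGFP109 and 15.5 in R6/1-RGFP109, a log2 genotype ratio of 1.02 with vehicle and 0.97 with RGFP109. Nfyc was higher at 0.38 and 0.36, and Nfyb was at 0.087 and 0.021. Nfe2l1, which restores proteasome gene expression after proteasome inhibition, was lower in R6/1 mice at -0.32 and -0.28, with 122, 97.8, 120 and 98.8 FPKM. For both Nfya and Nfe2l1 the R6/1 groups stood on the same side of the wild type groups irrespective of treatment. Levels of the NF-Y genes and of the members were not tested against each other.

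The lists that share inducers with the immunoproteasome were higher in R6/1 mice. Of 13 interferon response genes, 11 were past 1.2-fold above wild type with vehicle and 0 below, with a median log2 ratio of 0.69, against 16.3% of all genes above and 25.4% below. With RGFP109, 10 were above and 0 below, with a median of 0.63, against 14.4% and 22.4% of all genes. The summed FPKM of this list was 64.6 in WT-vehicle and 78.8 in R6/1-vehicle, and 61.8 in WT-RGFP109 and 83.7 in R6/1-RGFP109. Irf1, an inducer of immunoproteasome genes, had log2 ratios of -0.052 and 0.15. Of 10 genes for antigen processing by class I molecules, 4 were past 1.2-fold above with vehicle and 5 with RGFP109, against the same 16.3% and 14.4% of all genes, with medians of 0.23 and 0.27. These genes include neighbors of the members. Tap1, a subunit of the peptide transporter, lies 226 bases from Psmb9 and 970 bases from Psmb8, and had log2 genotype ratios of 0.42 and 0.29. Tap2, the other subunit, lies 3025 bases from Psmb8 and had ratios of 0.46 and 0.41. Irf9, a component of the interferon-activated transcription factor, lies near Psme2 on chromosome 14 and had ratios of 0.36 and 0.51. Rnf31, which lies between Psme2 and Irf9, had ratios of only 0.062 and 0.11, so the genes around Psme2 were not all higher to a like degree. In the treatment comparisons the interferon list was split, with 3 genes past 1.2-fold above (23.1%) and 2 below (15.4%) in each genotype. Over all genes, 5.93% were above and 7.23% below in R6/1 mice, and 7.05% and 10.6% in wild type mice.

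The tissue of the groups differed in its cell type markers. The 10 measured markers of striatal projection neurons summed to 3387 FPKM in WT-vehicle and 1319 in R6/1-vehicle, and 3279 in WT-RGFP109 and 1189 in R6/1-RGFP109. With vehicle, 9 of them were past 1.2-fold lower in R6/1 mice, against 25.4% of all genes. The 12 microglia markers, genes of immune cells of the brain, summed to 386, 322, 379 and 316 FPKM. Of these, 0 were past 1.2-fold higher and 6 lower in R6/1 mice with vehicle, against 16.3% and 25.4% of all genes. The 3 immunoproteasome genes, Psme1, Psme2 and the summed interferon genes were thus higher in the groups in which microglia markers were lower. The 7 astrocyte markers (752, 564, 763 and 563 FPKM), the 6 oligodendrocyte markers (4674, 2618, 3651 and 2956 FPKM) and the 6 endothelial markers (25.5, 18.5, 21.5 and 16.6 FPKM) were also lower in sum in R6/1 than in wild type mice. The 5 neocortical markers summed to 343, 189, 318 and 241 FPKM. The 8 choroid plexus markers summed to 1490, 633, 323 and 40.9 FPKM. All 8 were past 1.2-fold lower with RGFP109 in either genotype, against 7.23% of all genes in R6/1 and 10.6% in wild type mice. No marker of these lists was at 0 in every group, and the part of these differences in the ratios of the members was not tested.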

How the data were processed

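Striatal RNA of 24 mice was prepared with the Illumina TruSeq RNA kit and sequenced as single-end reads. Per the labels, the authors aligned the reads with STAR 2.5.0b to mm10 and computed FPKM values with Cufflinks 2.2.1. The authors then compared the 4 groups in pairs with Cuffdiff and deposited 6 tables, each with 1 FPKM value per group, pooled over the mice and scaled within the pair. The log2 fold changes, test statistics, p-values and q-values of the tables hold the authors' own comparisons and were not used. Depth per library is unknown, because read counts were not used here, and no interval from counts is given. Libraries were sequenced in 2 pools, and each pool held libraries of all 4 groups. The number per group was equal in the first pool but not in the second, where R6/1-RGFP109 had the most libraries and WT-vehicle the fewest. Values within a pool were not computed, because the FPKM values cover both pools together.

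Genes found in every table were kept (24340), which left out 2. Log2 ratios were computed within the table of a pair after adding 0.05 FPKM, for genes with at least 0.1 FPKM in either group. Levels of vehicle groups and of RGFP109 groups come from the 2 genotype tables. With 1 value per group, no test was made. The immunoproteasome share is the FPKM of Psmb8, Psmb9 and Psmb10 over that of these and Psmb5, Psmb6 and Psmb7. Named genes were all catalytic subunits, Psme1 and Psme2, the 2 highest and 2 lowest of each class, members past 1.2-fold and the 3 largest ratios in each direction, and from the other lists those past 1.2-fold, of which examples are given. The members and lists were chosen with earlier results of these data known. The ratio and counting steps were tested on simulated data. Alternatives covered the fold, the pseudocount, the minimum FPKM, centring, other tables and the members counted. Coordinates of genes are those of the tables on mm10. Promoter windows came from RefSeq on GRCm38.p6. Proteins were not analysed here, and the values of some listed genes are not reported here. Software was Python 3.11.15 with pandas 2.3.3, numpy 2.4.6 and matplotlib 3.10.9.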

Additional observations from a re-analysis of the deposited data

How the results depend on the processing

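The median log2 ratios of the 31 core genes and the differences in immunoproteasome share moved by less than 0.1 and by less than 1 percentage point, respectively, under every alternative run. These limits exceed all the core medians, and all the share differences but that of genotype with RGFP109. Staying within them therefore does not show that a value kept its size or sign, and the ranges are given next. The core median ranged from 0.069 to 0.078 for genotype with vehicle, from 0.078 to 0.091 for genotype with RGFP109, from -0.00024 to 0.0069, thus on both sides of 0, for treatment in R6/1 mice and from -0.015 to -0.011 for treatment in wild type mice. The share difference ranged from -0.152 to 0.604, from 0.369 to 1.42, from -0.0775 to 1.41 and from -0.364 to -0.0547 percentage points in the same order, including each catalytic site alone, so that its sign depended on the site in the vehicle genotype comparison and in treated R6/1 mice. Summed levels stayed within 1.1 times when the mean of the 3 tables of a group was used.

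Counts of members past 1.2-fold depended on the fold and the filter. For genotype with vehicle, 7 members became 2 at an absolute log2 ratio above 0.5 and 3 without members that share a locus with another gene. For genotype with RGFP109, 5 became 0 at the higher ratio, 3 with 1 FPKM added, 1 at a minimum of 10 FPKM and 3 without shared loci. For treatment in R6/1 mice, the 1 member, Psme2b, was lost with 1 FPKM added, at a minimum of 1 or 10 FPKM and without shared loci, which left 0 in each case. For treatment in wild type mice, 3 became 1 at the higher ratio, 0 with 1 FPKM added, 1 at a minimum of 1 FPKM and 0 at a minimum of 10 FPKM. The alternative without shared loci was chosen after seeing the data. The other 30 counts stayed within 1.5 times. Leaving out each replicate was not run, because the tables analysed hold no value per library. No paired analysis was possible because the columns are pooled over the mice of a group and carry no replicate numbers.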

Other observations

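The members lie on 16 chromosomes, with 10 on chromosome 11 and 6 on chromosome 14. The locus given for 8 members is also that of another gene. Psma3 shares that of 3110056K07Rik, which had a log2 genotype ratio with vehicle of 0.37, and Psma4 that of AY074887, with 0.29. The log2 ratios of these members were 0.16 and 0.12, and whether reads were divided between the genes of a locus was not tested.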
